A study of Saccharomyces cerevisiae with 5 samples.

Results

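The 38 genes described here encode the machinery that builds peroxisomes in the budding yeast Saccharomyces cerevisiae and the enzymes that burn fatty acids with it. They were taken from a list of names, and all 38 were found among the 6256 genes of the array, on 60 of its 10263 gene spots. The list held 19 peroxins, 16 enzymes and carriers of fatty acid activation, beta-oxidation and carnitine transport, and 3 transcription factors. Messenger RNA of YFR23, a strain in which CHS2 was replaced by a kanamycin resistance marker (chs2Δ), was compared on 5 oligonucleotide arrays that read both strains in separate dye channels, with that of its wild-type parent MGD353-46D. CHS2 encodes chitin synthase II, which lays down the primary septum between mother and bud. Both strains were listed as mating type α, and so as haploid. They carried mutant alleles of TRP1, URA3, LEU2 and HIS3 along with cyhR, which gives resistance to cycloheximide, and ADE+ ARG. A single deletion strain was used. Cultures were grown at 26 °C to an optical density of 0.5 to 0.8 in synthetic medium with 2% glucose, so no fatty acid was given as a carbon source. The methods name complete medium and medium without histidine, and do not say which strains had the latter. Each array held 1 chs2Δ and 1 wild-type preparation, described as biological replicates. The series text speaks of 5 replicate cultures and in another place of cultures in triplicate, so p-values measure the spread between these arrays.

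Peroxisomes are small organelles bounded by a single membrane. Peroxins, the PEX proteins, place membrane proteins, carry folded enzymes across the membrane on shuttling receptors, recycle those receptors with ubiquitin, and shape and divide the organelle. In yeast the whole of beta-oxidation takes place in peroxisomes, and the acetyl units leave for the mitochondrion as acetyl-carnitine or through the glyoxylate cycle. Oleate induces the enzyme genes through the paired factors Oaf1p and Pip2p together with Adr1p, and glucose represses them.

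The targeted gene was read first. CHS2 (YBR038W) had log2 ratios of chs2Δ over wild type of -0.35, -0.56, -0.95, -1.63 and -0.58 on arrays 1 to 5, a mean of -0.81 (SE 0.17, adjusted p = 0.00249 from limma). It was lower on every array, although its chs2Δ signal still lay above background on 4 arrays. The position of the CHS2 probe within the gene was not known. The array titles carry the name of another strain, YJR6 (myo1Δ), while the sources of the RNA name YFR23. MYO1 was at -0.31 (adjusted p = 0.0013). The 4 genes expressed in α cells that were looked up (SAG1, MF(ALPHA)1, MF(ALPHA)2 and STE3) were lower in chs2Δ by log2 values of -2.53 to -2.11. From the lowest of 6241 genes, they ranked 2, 13, 3 and 4 in that order. Both strains were nevertheless listed as mating type α. Of 7 genes of a cells, STE6 was higher at 0.91 and the other 6 did not pass the test, 3 of them at background in chs2Δ throughout. The part of mating-type expression in the results below was not tested.

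The chs2Δ channel was the dimmer one on every array. With the local background taken off, the median spot of an array read 77.3 to 197 intensity units in chs2Δ and 210 to 425 units in the wild type. Between 72.2% and 82.1% of gene spots were above background in chs2Δ and between 88% and 92% in the wild type. All ratios below were therefore scaled with a loess curve on each array, which sets the bulk of the genes at each brightness at 0. A positive log2 ratio thus means a higher ratio of chs2Δ over wild type than most genes of similar brightness had. A change in total mRNA per cell cannot be told apart from such a ratio, nor can a change in every cell from a change in some of them. The constant of 50 units added after background correction shrinks the ratios of dim spots. Genes were called at a Benjamini-Hochberg adjusted p below 0.05 over 6241 genes. The ratios of any pair of arrays correlated at 0.869 to 0.978 across genes, which are not independent replicates.

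Of the 38 genes, 18 were higher in chs2Δ, 13 were lower and 7 did not pass the test. Most genes of the array were called as well. The share called was 81.6% of the 38 and 71.6% of all genes tested, of which 35.7% were higher and 36.0% lower. At least 2-fold higher were ADR1, FAA1, PEX22 and PXA2, and at least 2-fold lower was PEX25, against 10.2% and 5.46% of all genes past the same limits. The median log2 ratio of the 38 was 0.07 and their median size without sign 0.35, the same size as over all genes tested (0.35). The 31 called members had the same sign on all 5 arrays, which held for 94.1% of all called genes measured on every array. Of 18 members higher in chs2Δ, 12 had their lowest value on array 1, which was also the lowest array for 42.8% of all genes called higher.

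**Figure D1:**
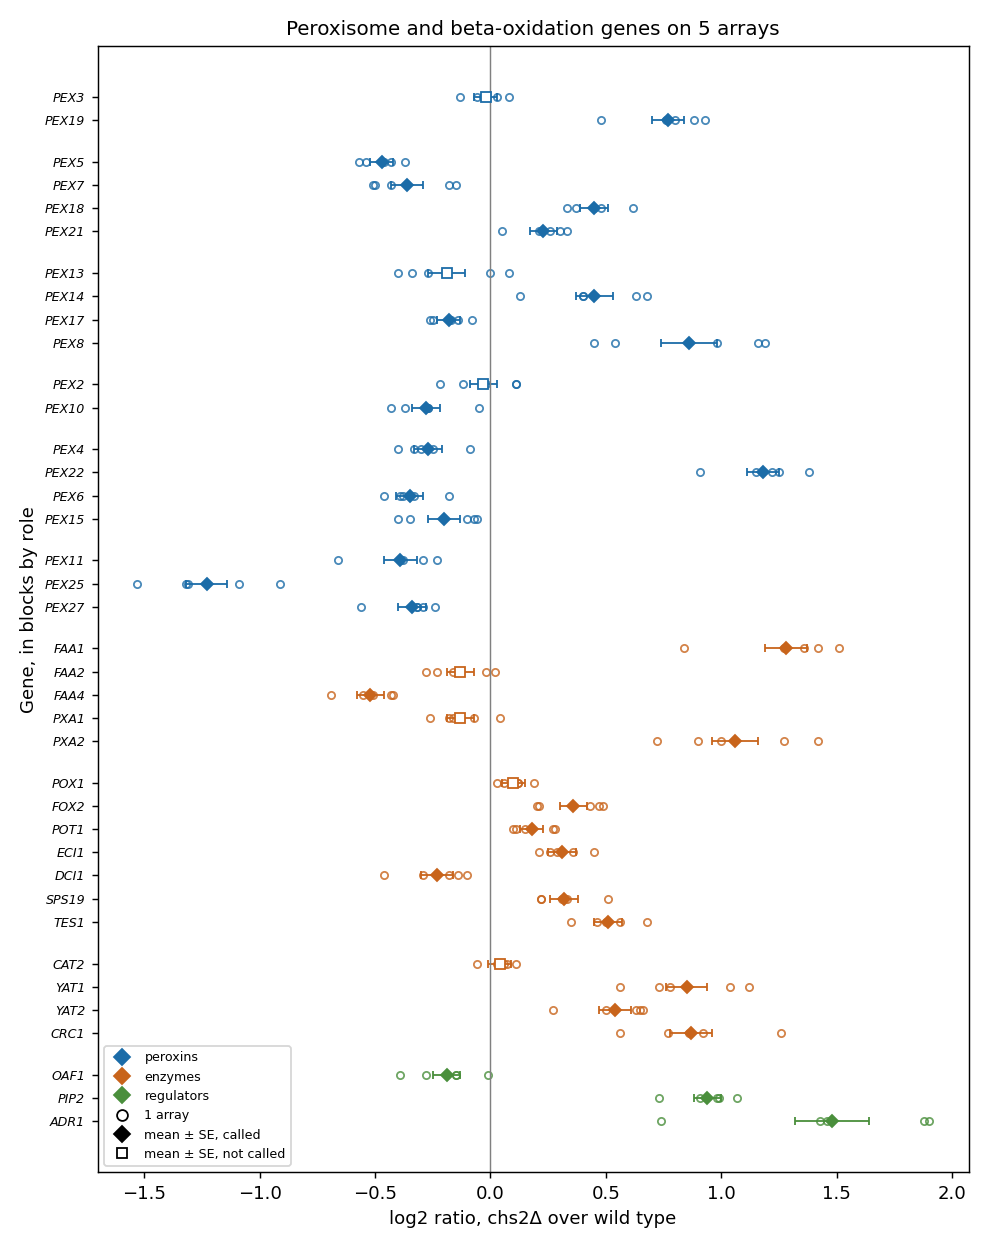
The horizontal axis gives the log2 ratio of chs2Δ over wild type for the 38 genes, in blocks by role, with open circles for the 5 arrays and filled diamonds (called) or open squares (not called) for the mean with its SE. ADR1 (1.48), FAA1 (1.28) and PEX22 (1.18) lie farthest to the right, and PEX25 (-1.23) lies alone on the left.

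The 3 transcription factors did not move together. ADR1 (YDR216W), the zinc-finger activator of genes that glucose represses, had log2 ratios of 0.74, 1.88, 1.43, 1.90 and 1.46 on arrays 1 to 5. All 5 were above 0, with array 1 the lowest, and the mean was a 2.79-fold rise (log2 1.48, SE 0.16, adjusted p = 5.2e-05), larger than that of 95.3% of genes. In background-subtracted intensity, ADR1 read 115, 417, 194, 202 and 208 units in chs2Δ and 303, 178, 263, 203 and 155 units in the wild type. The chs2Δ spot was thus the brighter of the pair on arrays 2 and 5 even before any scaling, although its channel was the dimmer one. Its ratios were higher on the 2 arrays with chs2Δ in Cy3 (1.88 and 1.90) than on the 3 with chs2Δ in Cy5, and a dye term had an unadjusted p of 0.0172 in limma.

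PIP2 (YOR363C), which encodes the oleate-induced partner of Oaf1p, had log2 ratios of 0.99, 0.98, 1.07, 0.73 and 0.91, a 1.91-fold rise (log2 0.94, SE 0.06, adjusted p = 3.5e-06). The 5 arrays lay close together, with array 4 the lowest. OAF1 (YAL051W), which encodes the fatty-acid-binding partner, had log2 ratios of -0.39, -0.01, -0.28, -0.15 and -0.15. Its fall to 0.874 times the wild-type value was small (log2 -0.19, SE 0.06, adjusted p = 0.0263) and did not pass the test without replicate 1, 3 or 5, at log2 values of -0.15, -0.17 and -0.21. No array had PIP2 and OAF1 overlapping, and the difference of their log2 ratios was 1.13 ± 0.22 (SD, n = 5).

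Fatty acids are first bound to coenzyme A and then carried into the peroxisome. Within this step partner genes parted under loess. FAA1 (YOR317W), which encodes the main long-chain acyl-CoA synthetase, had log2 ratios of 0.84, 1.51, 1.42, 1.27 and 1.36. It was 2.43-fold higher in chs2Δ (log2 1.28, SE 0.09, adjusted p = 6.9e-06), with array 1 below the other 4. FAA4, whose product shares the import and activation of long-chain fatty acids with Faa1p, was lower on all arrays. Its log2 ratios were -0.42, -0.55, -0.43, -0.51 and -0.69, a fall to 0.696 times the wild-type value (log2 -0.52, SE 0.06, adjusted p = 6.9e-05). Signals of FAA4 were 237 to 669 units in chs2Δ and 1670 to 3120 units in the wild type, so neither channel was near background. FAA2, which encodes the peroxisomal synthetase for medium-chain acids, had a log2 ratio of -0.13 (adjusted p = 0.0868) and stayed at background in chs2Δ on all 5 arrays.

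PXA1 and PXA2 encode the subunits of the transporter that brings long-chain acyl-CoA through the peroxisomal membrane. PXA2 (YKL188C) had log2 ratios of 0.72, 1.42, 0.90, 1.27 and 1.00, a 2.09-fold rise (log2 1.06, SE 0.10, adjusted p = 2.6e-05). Its signal was 71.8 to 225 units in chs2Δ and 76.2 to 151 units in the wild type, above background on every array in both strains. The ratio of PXA2 was highest on the arrays with chs2Δ in Cy3, and a dye term had an unadjusted p of 0.00482 in limma. PXA1 had log2 ratios of -0.16, -0.26, -0.07, -0.18 and 0.04 and did not pass the test (mean -0.13, adjusted p = 0.0856). Its chs2Δ signal was above background on 1 array, so the ratio of PXA1 rests largely on the background setting. Under median centring of the arrays PXA1 was called higher at 0.49 (adjusted p = 2.9e-04 in limma), as was PXA2 at 1.28.

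Of 7 genes of the beta-oxidation spiral and its auxiliary steps, 5 were higher, 1 was lower and 1 did not pass the test. The rises were small. Over all genes tested 35.7% were higher and 36.0% lower. FOX2, which encodes the multifunctional enzyme of the hydratase and dehydrogenase steps, had log2 ratios of 0.20, 0.47, 0.43, 0.21 and 0.49 (mean 0.36, 1.28-fold, adjusted p = 0.00117). Among the genes for enzymes that prepare unsaturated acids, ECI1 and SPS19 were higher and DCI1 was lower. ECI1, for the enoyl-CoA isomerase, ranged from 0.21 to 0.45 (mean 0.31, adjusted p = 0.00105), and SPS19, for the dienoyl-CoA reductase, from 0.22 to 0.51 (mean 0.32, adjusted p = 0.00145). TES1, which encodes the acyl-CoA thioesterase, was the highest of the 7 at 1.42-fold (log2 0.51, range 0.35 to 0.68, adjusted p = 1.0e-04), and its 2 spots gave 0.65 and 0.37. DCI1 is a close relative of ECI1. Its log2 ratios of -0.46 to -0.10 averaged -0.23 (adjusted p = 0.0117), but its chs2Δ signal was above background on 3 arrays only and the value turned to 0.21 under median centring, a call in the other direction (adjusted p = 0.0077).

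The enzymes at either end of the spiral were barely seen. POX1, which encodes the acyl-CoA oxidase that starts it, rose above background on 0 arrays in chs2Δ and on 1 in the wild type. Its log2 ratio was 0.10 (range 0.03 to 0.19, adjusted p = 0.0955). POX1 was called higher with an offset of 0 (0.53), with background subtracted (0.30) and under median centring (0.97). POT1, which encodes the thiolase that ends it, was above background on 1 array in chs2Δ and 2 in the wild type, with a log2 ratio of 0.18 (range 0.10 to 0.28, adjusted p = 0.0151). The rise of POT1 was no longer called without replicate 5 (0.16) or without background correction (0.05). It was 0.64 with an offset of 0 and 0.91 under median centring. In either strain these oleate-induced genes were thus near the detection limit in glucose medium, and no fold change can be read from POX1.

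Genes of the carnitine shuttle had the highest median log2 ratio of the enzyme groups, 0.69, with 3 of 4 higher. Over all genes tested 35.7% were higher. CRC1 (YOR100C), which encodes the carnitine carrier of the inner mitochondrial membrane, had log2 ratios of 0.56, 1.26, 0.92, 0.86 and 0.77, a 1.83-fold rise (log2 0.87, SE 0.09, adjusted p = 5.4e-05). YAT1 (YAR035W), which encodes a carnitine acetyltransferase of the outer mitochondrial membrane, had 0.56, 1.04, 0.78, 1.12 and 0.73, a 1.80-fold rise (log2 0.85, SE 0.09, adjusted p = 4.4e-05). For both genes array 1 was the lowest and no array came near 0. YAT1 was highest on the arrays with chs2Δ in Cy3, and a dye term had an unadjusted p of 0.00728 in limma. YAT2, for another carnitine acetyltransferase, was 1.46-fold higher (log2 0.54, range 0.27 to 0.66, adjusted p = 1.6e-04). CAT2, whose product is the carnitine acetyltransferase of peroxisomes and mitochondria, had a log2 ratio of 0.04 (range -0.06 to 0.11, adjusted p = 0.49), with chs2Δ above background on 2 arrays. Under median centring CAT2 was 0.56 and its distance to YAT1 shrank from 0.81 to 0.17.

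Among the peroxins 6 were higher, 10 lower and 3 not called, and the list held the largest fall of the 38 genes. Over all genes tested 35.7% were higher and 36.0% lower. All 3 genes of division and proliferation were lower. PEX25 (YPL112C), which encodes a peripheral membrane protein of the early steps of peroxisome proliferation, had log2 ratios of -1.09, -1.53, -1.32, -0.91 and -1.31. It stood at 0.426 times the wild-type value (log2 -1.23, SE 0.09, adjusted p = 5.8e-06), with only 3.32% of genes lower. Its signals were 123, 194, 97.1, 82.8 and 86.1 units in chs2Δ against 1700, 1210, 1290, 1030 and 734 units in the wild type. Both strains were above background on all arrays. These units are not scaled, so their lack of overlap does not bear on the fall. PEX2, which was not called under loess, had no overlap either, at 92.7 to 244 units in chs2Δ and 295 to 605 units in the wild type. PEX11, for the membrane protein that elongates peroxisomes, was at 0.764 (log2 -0.39, range -0.66 to -0.23, adjusted p = 0.0012). PEX27, a paralog of PEX25, had a log2 ratio of -0.34 (range -0.56 to -0.24, adjusted p = 0.00103), with a chs2Δ signal above background on no array and a wild-type signal on all 5. With the lowest signal above background as the ceiling of the dim channel, PEX27 was at least 1.06-fold lower in chs2Δ under loess, which is no bound under other scalings, since under median centring it was called higher at 0.29 (adjusted p = 0.0147).

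Genes of receptor recycling went both ways, with 1 higher and 3 lower, where 35.7% of all genes tested were higher and 36.0% lower. PEX22 (YAL055W), which encodes the membrane anchor of the ubiquitin-conjugating enzyme Pex4p, had log2 ratios of 0.91, 1.22, 1.15, 1.38 and 1.25. It was 2.27-fold higher (log2 1.18, SE 0.07, adjusted p = 2.5e-06), and its signal was 124 to 344 units in chs2Δ and 179 to 282 units in the wild type. PEX4 itself was lower, with log2 ratios of -0.40 to -0.09 (mean -0.27, adjusted p = 0.003). The fall of PEX4 was not called under median centring (-0.07). PEX6, for an ATPase that pulls receptors out of the membrane, was at 0.786 (log2 -0.35, range -0.46 to -0.18, adjusted p = 6.7e-04). PEX15, for its membrane anchor, was at 0.872 (log2 -0.20, range -0.40 to -0.06, adjusted p = 0.0321) and lost its call without replicate 2, 3 or 4 (-0.16, -0.22 and -0.15).

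Under loess both cargo receptor genes were lower and both co-receptor genes higher, where 35.7% of all genes tested were higher and 36.0% lower. PEX5, which encodes the receptor for the common C-terminal import signal, had log2 ratios of -0.57, -0.54, -0.46, -0.43 and -0.37 and stood at 0.72 times the wild-type value (log2 -0.47, SE 0.05, adjusted p = 6.9e-05). PEX7, for the receptor of the N-terminal signal that the thiolase Pot1p carries, had -0.51, -0.18, -0.50, -0.15 and -0.43 (mean -0.36, adjusted p = 0.00226). The values of PEX7 nearest to 0 were those of the arrays with chs2Δ in Cy3, and a dye term had an unadjusted p of 0.00943 in limma. PEX18 and PEX21 encode the co-receptors of Pex7p. PEX18 had log2 ratios of 0.33 to 0.62 (mean 0.45, 1.36-fold, adjusted p = 1.7e-04), with signal above background on 4 arrays in chs2Δ and 2 in the wild type. PEX21 had 0.05 to 0.33 (mean 0.23, adjusted p = 0.00711). Under median centring PEX21 was -0.26, a call in the other direction (adjusted p = 0.00429 in limma).

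Docking at the membrane was mixed as well. PEX14, for the central docking protein, was 1.36-fold higher (log2 0.45, range 0.13 to 0.68, adjusted p = 0.00146). PEX8 (YGR077C), whose product links the docking proteins to the ubiquitin ligases, had log2 ratios of 0.45, 1.19, 0.54, 1.16 and 0.98, a 1.82-fold rise (log2 0.86, SE 0.12, adjusted p = 2.5e-04). Arrays 1 and 3 were low for PEX8, whose SD of 0.35 between arrays was exceeded only by that of ADR1 (0.47) among the 38. PEX8 was highest on the arrays with chs2Δ in Cy3, and a dye term had an unadjusted p of 0.0158 in limma. PEX13 ranged from -0.40 to 0.08 and did not pass the test (mean -0.19, adjusted p = 0.0746). PEX17 had a log2 ratio of -0.18 (adjusted p = 0.014) with chs2Δ at background on all 5 arrays, and 0.56 under median centring, so its direction depended on the scaling. Of the RING ubiquitin ligases, PEX10 was lower (log2 -0.28, range -0.43 to -0.05, adjusted p = 0.00494) and PEX2 was at -0.03 (adjusted p = 0.744). Under median centring PEX2 was called lower at -0.32.

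Of the genes that place peroxisomal membrane proteins, PEX19 was higher and PEX3 was not called. PEX19 (YDL065C), which encodes the soluble chaperone for these proteins, had log2 ratios of 0.48, 0.93, 0.76, 0.88 and 0.80, a 1.71-fold rise (log2 0.77, SE 0.07, adjusted p = 2.6e-05). Its signals were 349 to 815 units in chs2Δ and 572 to 1460 units in the wild type, far above background. The rise of PEX19 nevertheless depended on the scaling, since under median centring it was 0.12 and not called. PEX3, for the membrane receptor of Pex19p, was at -0.02 (SE 0.05, adjusted p = 0.724), with arrays from -0.13 to 0.08.

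Set side by side, the enzymes lay above the peroxins on each array. The median log2 ratio of the 16 enzymes was 0.24, 0.31, 0.34, 0.21 and 0.47 on arrays 1 to 5, and that of the 19 peroxins -0.14, -0.25, -0.10, -0.09 and -0.17. The difference of the medians was 0.38, 0.56, 0.44, 0.30 and 0.64, or 0.47 ± 0.14 (SD, n = 5). Over all genes the median was -0.01. Counted by calls, 10 enzymes were higher and 2 lower, against 6 peroxins higher and 10 lower. The share called was 75.0% of the enzymes, 84.2% of the peroxins and 71.6% of all genes tested. Of all genes 35.7% were higher and 36.0% lower. The lists still overlapped widely, from -0.52 to 1.28 for enzymes and from -1.23 to 1.18 for peroxins, and no test was made because the genes of a list are not replicates. More enzymes than peroxins were dim: chs2Δ was above background on all arrays for 10 of 16 enzymes and for 16 of 19 peroxins. The part of this dimness in the difference was not tested. A looser filter left out genes that had both strains above background on fewer than 3 arrays. It kept 11 enzymes and 16 peroxins. Taken between the medians of the gene means, the difference was then 0.70, against 0.50 for the full lists.

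**Figure D2:**
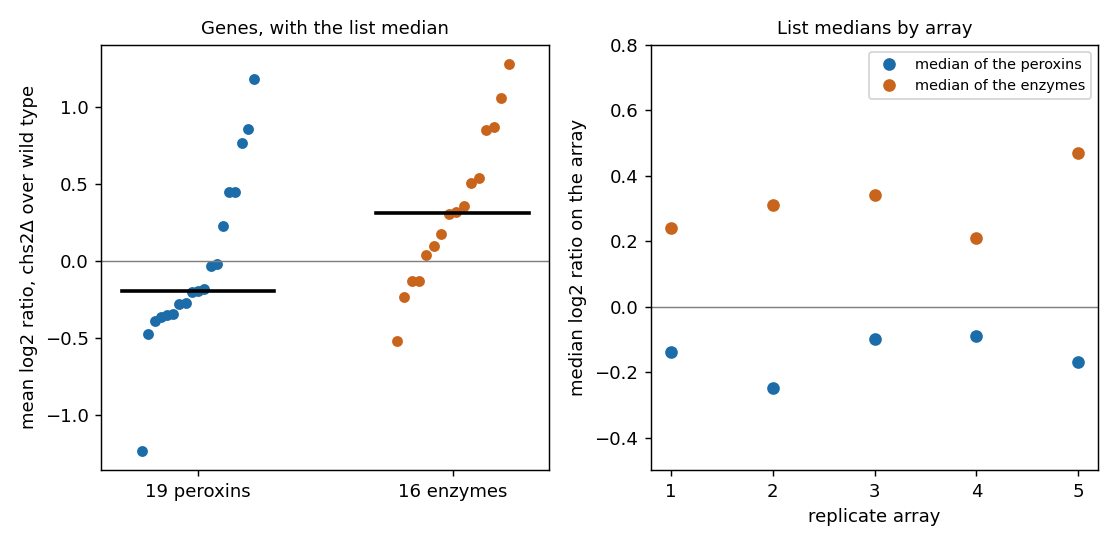
The left panel plots the mean log2 ratio of chs2Δ over wild type for each peroxin and enzyme, in rising order, with the list median as a black line (-0.19 and 0.32). The right panel plots the list medians on each of the 5 arrays, where the enzymes lie between 0.21 and 0.47 and the peroxins between -0.25 and -0.09.

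Several of the genes encode partners, paralogs or enzymes of 1 reaction, and 8 such pairs were compared array by array. These 8 were chosen, with the higher gene put first, and other related pairs were left out. In each of the 8 the difference of the log2 ratios had the same sign on 5 of 5 arrays. That is not a trait of related genes as such. PEX2 and PEX10, a pair left out, changed order, at -0.22 and -0.37 on array 1 and -0.12 and -0.05 on array 4. A two-sided exact test that flips the signs of the 5 arrays gave 0.0625 for every pair, before and after adjustment over the 8. This is the smallest p that 5 arrays allow, does not pass 0.05 and follows from the shared sign alone. The widest gap was that of FAA1 over FAA4, 1.80 ± 0.33 (SD, n = 5). PEX22 exceeded PEX4 by 1.46 ± 0.14, PXA2 exceeded PXA1 by 1.19 ± 0.35 and PEX11 exceeded PEX25 by 0.84 ± 0.13. Against PEX7, the co-receptor genes stood higher by 0.80 ± 0.21 for PEX18 and by 0.58 ± 0.25 for PEX21. The sizes depended on the processing while the signs did not turn under median centring, either change of background correction or a dye term. Under median centring the gap to PEX7 was 1.60 for PEX18 and 0.24 for PEX21. Without background correction and with an offset of 0, the gap ranged from 0.34 to 1.72 for PEX18 over PEX7, from 0.56 to 1.95 for PXA2 over PXA1, from 0.87 to 1.96 for PEX22 over PEX4 and from 0.67 to 1.45 for PIP2 over OAF1. PEX21 over PEX7 was 0.35, YAT1 over CAT2 0.47 and PEX11 over PEX25 0.56 without background correction. PEX18, PXA1 and CAT2 were below background on some arrays.

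**Figure D3:**
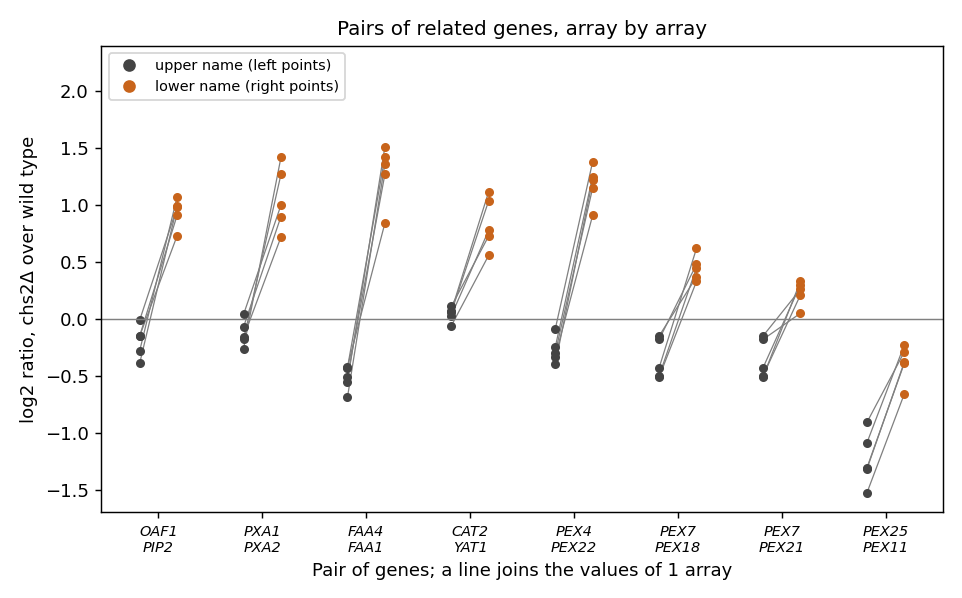
For 8 pairs of related genes, points give the log2 ratio of chs2Δ over wild type on each array and grey lines join both genes of a pair on the same array. The gene with the lower mean was put on the left, and every line rises to the right one. The steepest are from FAA4 to FAA1 (mean difference 1.80) and from PEX4 to PEX22 (1.46).

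Lists of further genes of the organelle also held both directions. Of 14 further peroxins and proteins of peroxisome division and inheritance, 4 were higher, 7 lower and 3 not called, with a median log2 ratio of -0.17. The share called was 78.6%, near the 71.6% of all genes tested, of which 35.7% were higher and 36.0% lower. FIS1 was higher at 1.34 (adjusted p = 8.8e-07), and it encodes the membrane anchor of the fission machinery of mitochondria and peroxisomes. VPS1, which encodes the dynamin-like protein that cuts peroxisomes in glucose-grown cells, was lower at -0.81 (range -0.98 to -0.72, adjusted p = 5.0e-06), and PEX35 was lower at -0.36, or -0.08 and not called under median centring. INP2, which encodes the peroxisomal receptor for the myosin that carries peroxisomes into the bud, was lower at -0.36 (range -0.45 to -0.26, adjusted p = 4.6e-04). Of 17 other peroxisomal enzymes and carriers, 7 were higher, 5 lower and 5 not called, with a median of 0.07. That list had 70.6% called, again near the share of all genes. GPD1, for glycerol phosphate dehydrogenase, was highest at 2.57, followed by PNC1, for nicotinamidase, at 2.54 on the 2 arrays that gave a usable spot. PCD1, for a peroxisomal diphosphatase that cleaves coenzyme A, was at 1.49. CIT2, for the citrate synthase of the glyoxylate cycle, was at 1.16, or 0.44 and not called under median centring.

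Glucose represses several of the 38 genes, so a list of 10 other glucose-repressed genes was read beside them. Of these, 6 were higher, 2 lower and 2 not called, with a median log2 ratio of 0.86. HXK1, for the hexokinase that glucose represses, was at 3.23, with 1.45 on array 1 and 3.30 to 3.86 on the others. PCK1 and FBP1, for enzymes of gluconeogenesis, were at 1.51 and 0.99, and CAT8, for an activator of that pathway, at 0.91. The 2 lower genes, named here after their values were seen, were SUC2, for invertase, at -0.59 (adjusted p = 9.5e-05) and ADH2, a known target of Adr1p, at -0.24 (adjusted p = 0.0212), or -0.52 and -0.27 under median centring. Among 7 genes of glucose signalling 3 were higher and 2 lower, a share called of 71.4% beside 71.6% of all genes tested. They included GLC7, for a protein phosphatase, at 1.21, MIG1, for the glucose repressor, at 0.80, SNF1, for the kinase that lifts repression, at -0.45 and HXK2 at -1.03 on its 3 usable arrays.

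The scaling decided the sign of some dim genes. With each array centred on its median in place of the loess curve, 35 of the 38 genes were called, 23 higher and 12 lower, when 83.1% of all genes were called. Among the enzymes 15 were then higher and 1 lower, and FAA4 was the lower one at -1.21. Genes below background in some array moved up. PEX17, PEX27, FAA2, PXA1 and DCI1 turned from below to above 0, while PEX21, which was above background throughout, turned from 0.23 to -0.26. ADR1, PIP2, FAA1, PXA2, PEX22 and PEX25 kept their direction and their call under the alternatives that gave a test, background corrections and left-out arrays included, with log2 ratios of 0.92 to 1.87, 0.59 to 1.14, 0.79 to 1.44, 0.50 to 1.73, 0.73 to 1.50 and -1.76 to -0.80 in that order.

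**Figure D4:**
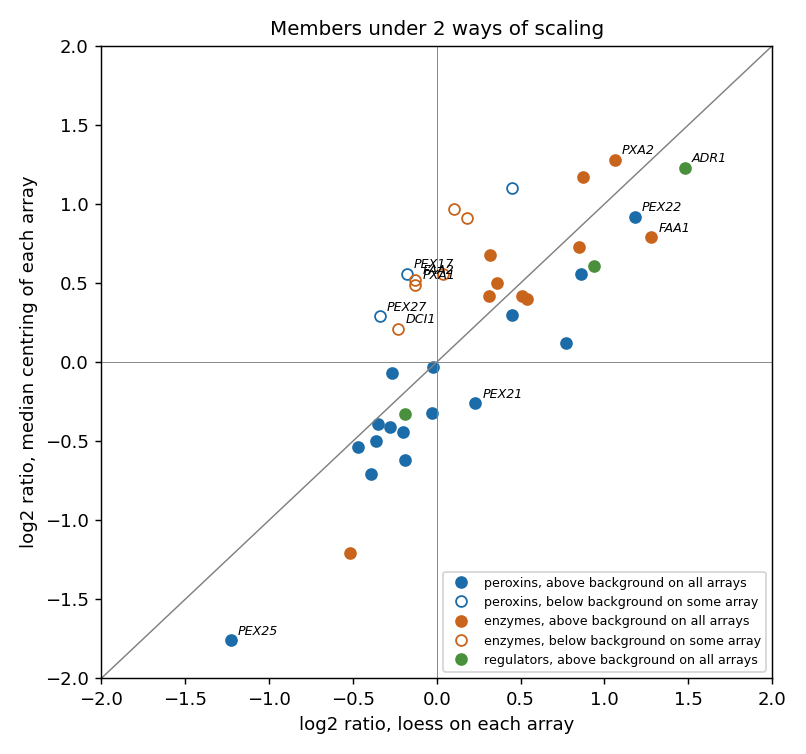
Each point is 1 of the 38 genes, with the log2 ratio under loess on the horizontal axis, the log2 ratio under median centring on the vertical axis and the line of equality in grey. Open points, the genes below background in either strain on some array, lie above the line, and 5 of them turn sign, such as PEX17 from -0.18 to 0.56.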

How the data were processed

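RNA of both strains was hybridised to 5 Agilent yeast arrays at 60 °C for 17 h. The arrays lay on 3 slides, with arrays 2 and 3 on the same slide and arrays 4 and 5 on another. On each shared slide the dyes were swapped between the arrays. It is not known which arrays share a culture. The authors scanned each array in both channels and quantified it with ImaGene (version 6.0.0 in the file headers), and the deposited spot intensity values carry a local background and a quality flag, with no correction. The authors also deposited log2 ratios of Cy5 over Cy3, background-corrected and lowess-normalised in limma, which correlated at 0.9986 to 0.9997 with the ratios computed here.

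Spots flagged poor were left out. Intensities were corrected with normexp (offset 50) and a global loess (span 0.3) in limma 3.58.1 under R 4.3.3, spots of a gene were averaged, and each ratio was given the direction chs2Δ over wild type from the labelled dyes. Each array holds both strains, so pairing is part of every ratio. lmFit and eBayes were fitted over 5 arrays and 6241 genes measured on at least 2 arrays, with Benjamini-Hochberg adjustment and a threshold of 0.05. Signals above the background median by 2 background SD counted as above background. A simulated data set was used to test the code.

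The members and lists were chosen with earlier results of these data known. All 38 members are named, and of each other list the 4 called genes with the largest change, besides CHS2 and MYO1. Gene names came from the RefSeq annotation, which matched 5756 of 6256 genes. Alternatives covered background correction, scaling, dye, slide, flags, dim genes, single spots, deposited ratios, thresholds and left-out arrays. Sequences were not used here, and 1 further peroxin gene is not reported here.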

Additional observations from a re-analysis of the deposited data

Results flagged for a closer look

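Of 63 genes and list medians whose 5 arrays were screened for a single array far from the others, 3 stood out, and chance alone marks about 1 in 20. PEX27 had a log2 ratio of -0.56 on array 2 and of -0.32 to -0.24 on the other arrays, all 5 at background in chs2Δ. HXK1 was at 1.45 on array 1 and at 3.30 to 3.86 on the others. SNF1 was at -0.55 on array 4 and at -0.44 to -0.40 on the others.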

How the results depend on the processing

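The number of the 38 genes called ranged from 26 to 35 over the alternatives, and no total of calls for the members, peroxins or enzymes moved by more than 1.5 times. The number of enzymes called lower, 2, was 4 with a dye term and 1 with median centring or at an adjusted p below 0.01. Leaving out each array in turn gave 29 to 31 members, 15 to 17 peroxins and 11 to 12 enzymes. Median centring turned PEX21 to -0.26, PEX17 to 0.56, PEX27 to 0.29, FAA2 to 0.52, PXA1 to 0.49 and DCI1 to 0.21, and the cause was not tested. PEX3 and PEX2 lay near 0 under loess. When each array was left out, they were at -0.05 to 0.00 and at -0.06 to 0.02 in that order. The sign changed without replicate 2 for PEX3 and without replicate 1 for PEX2. PEX2 was at 0.01 with no background correction. Under median centring PEX2 was called lower at -0.32 (adjusted p = 0.00289 in limma).

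The median log2 ratio of the peroxins was -0.10 with no background correction, -0.30 with normexp and an offset of 0, -0.26 with background subtracted and -0.26 with median centring. That of the enzymes was 0.13, 0.62, 0.49 and 0.54 in the same order, and 0.51 with dim genes left out, which dropped 8 members. The difference between the medians of the gene means, 0.50, was 0.22, 0.92, 0.75, 0.80 and 0.70 under these 5 alternatives. It stayed above 0 in each. Leaving out each array gave -0.23 to -0.16 for peroxins, 0.28 to 0.34 for enzymes.

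Calls were lost with the slide as the replicate for PEX15 and PEX17, with all flagged spots left out for PEX17 and POT1, with no background correction for POT1 and with median centring for PEX19 and PEX4. PEX17 was also lost without replicate 3 (-0.16). At an adjusted p below 0.01, 5 members lost their call. PEX13 passed the test under 6 alternatives. Of 7 members with an unadjusted dye p below 0.05 in limma, none passed after adjustment, and 20.7% of all genes had such a p. The 7 were PEX7, PEX8, PEX15, PXA2, DCI1, YAT1 and ADR1.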
